A study of Homo sapiens with 4 samples.

Results

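Wnt signalling was examined through 43 genes of the 26255 listed for MRC5, a human cell line grown from fetal lung fibroblasts. They are every listed gene whose symbol is that of a Wnt ligand (WNT, 19 genes), a Frizzled receptor (FZD, 10), a Dickkopf factor (DKK, 4) or a secreted Frizzled-related protein (SFRP, 4), together with LRP5, LRP6, ROR2, AXIN2, LEF1 and TCF7. The rule used symbols and no measured value, though it was set with earlier results of these data known. RNA was sequenced in 4 libraries, 2 from cells treated with miRs, that is microRNAs the labels do not name, and 2 from cells whose treatment label is no (control). All 4 are wild type by their genotype label and carry 48 h in their titles. The series title speaks of a negative-control microRNA, so whether the control cells were also transfected is not given in the sources used here. Nothing in the labels says that the 2 replicates of a group were separate cultures, and p-values therefore cover library-to-library spread alone, possibly technical.

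Wnt ligands are secreted, lipid-modified proteins that bind Frizzled receptors on the cell surface. With the co-receptor LRP5 or LRP6, this stops the breakdown of beta-catenin, which then works with the DNA-binding factors of the TCF and LEF family to raise target genes such as AXIN2. Other ligands, WNT5A above all, act mainly without beta-catenin, through Frizzled receptors and ROR2, on cell polarity and movement. Dickkopf factors act on the co-receptors and secreted Frizzled-related proteins on the ligands. In the developing mouse lung the mesenchyme makes Wnt2, Wnt2b and Wnt5a, and the epithelium makes Wnt7b.

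Levels were deposited as FPKM, in which fragments are divided by transcript length and by library size, so they can be compared between genes. Read numbers are not given. Between 11622 and 11781 genes reached 1 FPKM per library. The miRs libraries lay further apart than the controls. Of 11860 genes tested, 725 (6.11%) differed over 2-fold in FPKM + 1 between the 2 miRs libraries and 71 (0.599%) between the 2 controls. The 16 genes of an interferon response list summed to 10678 and 2195 FPKM in miRs replicates 1 and 2, against 112 and 133 FPKM in control replicates 1 and 2. All 14 fibroblast markers were tested and summed to 9246 and 13990 FPKM in miRs, against 14108 and 13179 FPKM in control. At an unadjusted p under 0.05 in limma, 6 of the 14 were lower and 1 higher in miRs (13% and 11.2% of all tested genes). Wholly below the controls lay 7 and wholly above 1 (30% and 29.5% of all tested genes), and the median log2 difference was −0.40. The higher one was S100A4, at 42.1 and 70.4 FPKM in miRs, against 20.7 and 34.5 FPKM in control. DCN, a matrix proteoglycan, was at 352 and 419 FPKM in miRs, against 963 and 1223 FPKM in control, and FAP, a fibroblast protease, at 7.91 and 11.7 FPKM in miRs, against 30.5 and 33.8 FPKM in control. Of 18 epithelial markers 10 stayed under 1 FPKM in all 4 libraries, with 7, among them ESRP1, GRHL2 and CLDN3, listed at 0 in each, and CDH1 at 0 in all but control replicate 1; their sum, mostly KRT18, was 209 and 273 FPKM in miRs, against 33.8 and 35.2 FPKM in control. Of 8 endothelial markers 6 and of 8 blood cell markers 7 stayed under 1 FPKM; the endothelial sum, mostly TEK, was 17.6 and 7.21 FPKM in miRs, against 14.0 and 11.4 FPKM in control, and the blood sum, mostly CD68, 131 and 42.6 FPKM in miRs, against 53.9 and 57.9 FPKM in control. The part of these differences in the Wnt values was not tested. In bulk RNA fewer cells of a type and less RNA per cell cannot be told apart.

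Of the 43 genes, 19 averaged 1 FPKM or more across the libraries and were tested: 6 ligands, 8 receptors and co-receptors, 3 secreted antagonists, TCF7 and LEF1. A further 12 were detected below that level and 12 were listed at 0 in all 4 libraries. In limma, with p-values adjusted over all 11860 genes tested, 0 of the 19 passed an adjusted p of 0.05 (0.245% of all tested genes did, 0.101% higher and 0.143% lower in miRs). WNT7B came closest, at an adjusted p of 0.0632, though it reached the expression minimum only through the miRs libraries, where it was high. At an unadjusted p under 0.05 there were 8 of the 19, where 24.2% of all tested genes lay: 4 higher in miRs (WNT7B, TCF7, LRP5 and FZD8; 11.2% of all tested genes) and 4 lower in miRs (WNT5A, WNT5B, FZD6 and DKK3; 13%). The groups did not overlap in 11 of the 19, 6 above (29.5% of all tested genes) and 5 below (30%), together close to the 59.5% over all tested genes. The median difference (miRs minus control, log2(FPKM + 1)) was −0.21 over the 19 and −0.0020 over all tested genes. When miRs replicate 1 was left out, 7 of the 19 passed, and without miRs replicate 2, 8 passed; all tested genes then gave 1653 and 3746 calls, with the lone miRs library assumed to vary like the controls. Without either control 0 of the 19 passed, and their smallest adjusted p was 0.506 without control replicate 1 and 0.489 without control replicate 2.

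**Figure D1:**
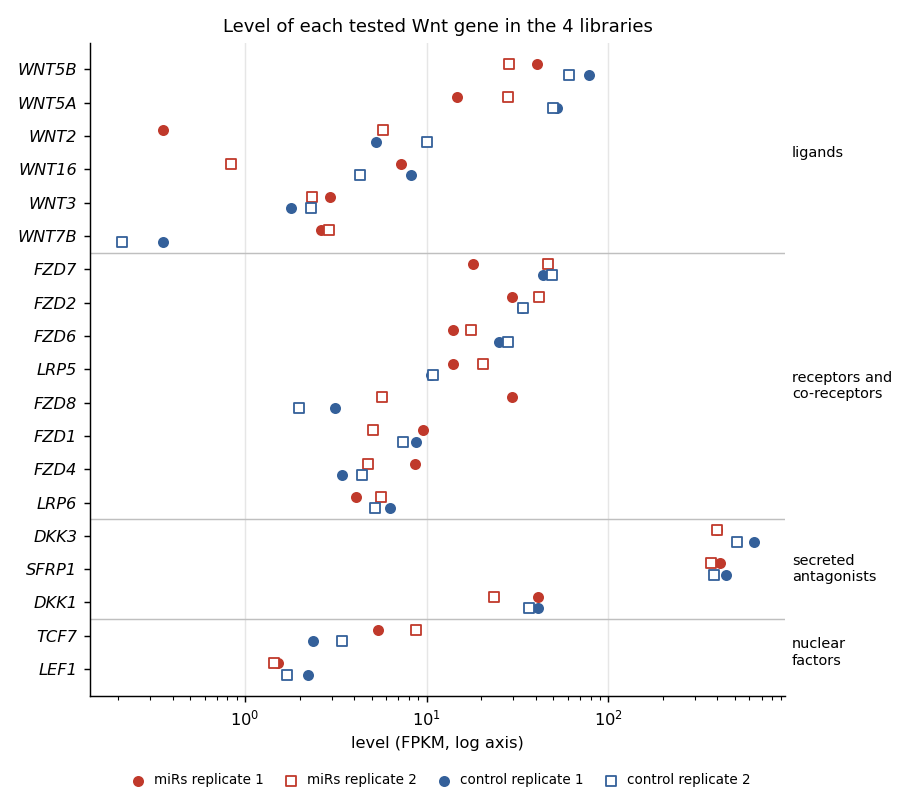
Level in FPKM (log axis) of the 19 tested Wnt genes, ordered by role and level. Each symbol is 1 library, red for miRs and blue for control, filled for replicate 1 and open for replicate 2. WNT5A, WNT5B, FZD6, DKK3 and LEF1 have both miRs libraries below both controls, and WNT3, WNT7B, FZD4, FZD8, LRP5 and TCF7 have both above.

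Among the ligands, WNT5B and WNT5A were the most abundant in every library, and both were lower in the miRs libraries. WNT5B, a close relative of WNT5A that also acts mainly without beta-catenin, was at 40.4 and 28.5 FPKM in miRs replicates 1 and 2, against 78.2 and 61.3 FPKM in control replicates 1 and 2. WNT5A was at 14.6 and 27.98 FPKM in miRs, against 52.4 and 50.0 FPKM in control. For both genes each miRs library lay below each control. WNT5A averaged 21.3 ± 9.44 FPKM in miRs and 51.2 ± 1.68 FPKM in control (SD, n = 2 each), a log2 difference of −1.29 ± 0.32 (SE) with an adjusted p of 0.115. For WNT5B the log2 difference was −1.01 ± 0.23 (SE), with an adjusted p of 0.106. Both passed when either miRs library was left out: WNT5A with an adjusted p of 0.0201 without miRs replicate 1 and 0.00327 without miRs replicate 2, and WNT5B with 0.0279 and 0.0384 in the same order. Neither passed when a control was left out: the adjusted p was 0.661 without control replicate 1 and 0.604 without control replicate 2 for WNT5A, and 0.665 and 0.544 for WNT5B. In the same libraries 7 of the 14 fibroblast markers, DCN and FAP among them, lay wholly below the controls and 1, S100A4, wholly above. Of all tested genes 30% lay below and 29.5% above. The part of the markers in the WNT5A and WNT5B values was not tested. The ratio of WNT5B to WNT5A was 2.76 and 1.02 in the miRs libraries, against 1.49 and 1.23 in the controls.

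The promoters of WNT5A and WNT5B are shown because these ligands carry most of the ligand signal, and those of FZD8 and TCF7 because their ratio of means, miRs over control, was the highest among the tested receptors and nuclear factors. Sequences are from RefSeq (GRCh38.p14, another build than the hg19 of the deposited values), 250 bases before the annotated start, 5′ to 3′ on the gene's strand. Where several starts are annotated 1 was taken, since these files do not tell which was used. The upstream start is shown for WNT5A and WNT5B and the downstream one for TCF7. No single rule set this choice, and for TCF7 the start shown is the one whose window held the marked motif. WNT5A lies on the minus strand at chr3:55487307-55487556, WNT5B on the plus strand at chr12:1616806-1617055, FZD8 on the minus strand at chr10:35642297-35642546 and TCF7 on the plus strand at chr5:134123368-134123617. Capitals mark CTTTG, the core of the TCF/LEF motif, on either strand.
WNT5A: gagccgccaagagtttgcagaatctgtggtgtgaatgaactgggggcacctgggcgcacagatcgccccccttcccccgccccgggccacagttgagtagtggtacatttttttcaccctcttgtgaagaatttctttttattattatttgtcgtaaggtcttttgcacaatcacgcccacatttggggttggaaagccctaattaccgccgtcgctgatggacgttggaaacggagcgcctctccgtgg
WNT5B: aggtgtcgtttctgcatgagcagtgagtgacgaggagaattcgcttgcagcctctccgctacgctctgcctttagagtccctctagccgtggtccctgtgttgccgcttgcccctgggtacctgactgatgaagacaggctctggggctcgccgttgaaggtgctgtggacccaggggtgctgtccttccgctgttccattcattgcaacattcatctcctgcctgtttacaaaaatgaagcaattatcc
FZD8: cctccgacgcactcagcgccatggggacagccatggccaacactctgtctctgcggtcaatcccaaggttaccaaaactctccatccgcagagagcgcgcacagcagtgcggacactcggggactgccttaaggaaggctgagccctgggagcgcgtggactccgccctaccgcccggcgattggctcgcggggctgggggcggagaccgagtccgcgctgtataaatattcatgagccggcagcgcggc
TCF7: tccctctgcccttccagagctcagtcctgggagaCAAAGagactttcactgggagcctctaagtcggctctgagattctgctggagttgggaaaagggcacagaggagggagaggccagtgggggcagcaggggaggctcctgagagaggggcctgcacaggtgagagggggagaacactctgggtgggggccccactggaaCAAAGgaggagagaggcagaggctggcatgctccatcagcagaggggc
Of these 4 windows, that of TCF7 held CTTTG, at 2 places, both read as CAAAG on the printed strand. TCF7 has a second annotated start, upstream of this one at chr5:134115363-134115612, whose window held no CTTTG. Nor did the second windows of WNT5A and WNT5B. Whether TCF7 stands apart from the other genes shown thus depends on the start taken.

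The table of promoters held 29 of the 43 genes, with 33 starts. CTTTG, searched on both strands, was in 7 of these 33 windows (DKK1, FZD1, LEF1, ROR2, TCF7, WNT3 and WNT8B) and in 42.1% of all 35116 promoter windows. The longer form CTTTGAT, which contains that core, was in 0 of the 33 and in 2.26% of all. GAAANNGAA, the core of the interferon-stimulated response element, was in 1 of the 33 (SFRP4, listed at 0 FPKM in every library) and in 6.88% of all. A match is a description of letters in the window and no binding was measured.

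Among the tested ligands, WNT2 and WNT16 differed most between the 2 miRs libraries. WNT2, a ligand of lung mesenchyme, was at 0.355 and 5.77 FPKM in miRs replicates 1 and 2, against 5.25 and 10.1 FPKM in control replicates 1 and 2. Replicate 1 was far below the controls and replicate 2 lay within their range, a gap of 16.2-fold between the miRs libraries. The log2 difference was −1.46 ± 0.82 (SE), with an adjusted p of 0.342, and without miRs replicate 2 it was −2.62 with an adjusted p of 0.0165. WNT16, a ligand known for its part in cortical bone in mice, was at 7.20 and 0.839 FPKM in miRs, against 8.21 and 4.30 FPKM in control. Here replicate 2 was the low one, with 8.58-fold between the miRs libraries. The log2 difference of WNT16 was −0.85 ± 0.77 (SE; adjusted p = 0.535), with −1.92 when miRs replicate 1 was left out, and 0.23 when replicate 2 was.

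WNT7B, a ligand of lung epithelium in mice, was at 2.61 and 2.91 FPKM in miRs replicates 1 and 2, against 0.354 and 0.209 FPKM in control replicates 1 and 2. The groups were well apart, with a ratio of means of 9.79 that rests on control values under 0.4 FPKM. WNT7B reached the expression minimum only through the miRs libraries. Its log2 difference was 1.55 ± 0.19 (SE), the smallest unadjusted p among the 19 (0.000624; adjusted p = 0.0632). Leaving out miRs replicate 1 gave an adjusted p of 0.0191, and leaving out replicate 2 gave 0.0135, whereas it was 0.506 without control replicate 1 and 0.489 without control replicate 2. Epithelial markers differed in the same direction. Of the 18 listed, 6 were tested. At an unadjusted p under 0.05 in limma 5 were higher and 0 lower in miRs (11.2% and 13% of all tested genes). All 6 lay wholly above the controls (29.5% of all tested genes). CLDN4 and CLDN7 reached the expression minimum only through the miRs libraries. KRT18 and KRT19 passed in limma, with an adjusted p of 0.0354 each (0.101% of all tested genes passed higher in miRs). EPCAM, not tested, was at 1.07 and 1.61 FPKM in miRs, against 0 and 0.228 FPKM in control. CDH1, ESRP1 and GRHL2 were at or near 0 in every library. The part of these markers in the WNT7B values was not tested. WNT3, which signals through beta-catenin, was at 2.93 and 2.35 FPKM in miRs, against 1.80 and 2.30 FPKM in control, with a log2 difference of 0.26 ± 0.19 (SE; adjusted p = 0.444). Its groups just miss each other, by less than the gap between the 2 controls.

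The other 13 ligands stayed below the minimum mean. WNT2B, which acts with WNT2 in early lung formation in mice, came nearest, at 0.153 and 0.483 FPKM in miRs, against 0.812 and 1.05 FPKM in control. With no minimum FPKM its log2 difference was −0.56, with an adjusted p of 0.208. WNT9A was at 0.427 and 0.325 FPKM in miRs, against 0.396 FPKM in control replicate 1 and a listed 0 in control replicate 2. WNT10B lay between 0.233 and 0.341 FPKM in all 4 libraries. WNT4, WNT8A and WNT11 were above 0 in miRs replicate 1 alone, at 0.0199, 0.0617 and 0.0428 FPKM. WNT1, WNT3A, WNT6, WNT7A, WNT8B, WNT9B and WNT10A were listed at 0 throughout.

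Summed over all 19 ligands, the level was 69.1 and 69.4 FPKM in miRs replicates 1 and 2, against 148 and 129 FPKM in control replicates 1 and 2. The miRs sum was thus 0.4996 times the control sum. WNT5A and WNT5B made up 79.6% and 81.4% of it in miRs, against 88.4% and 85.9% in control. The remainder was made up differently in the 2 miRs libraries. WNT16 took 10.4% and 1.21% in miRs, against 5.56% and 3.32% in control, and WNT2 took 0.514% and 8.31% in miRs, against 3.56% and 7.78% in control. By mean level the order was WNT5B, WNT5A, WNT16, WNT2, WNT7B and WNT3 in miRs, and WNT5B, WNT5A, WNT2, WNT16 and WNT3 in control. The last 4 in miRs, whose ranges overlap, and WNT2 with WNT16 in control did not differ beyond their spread.

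**Figure D2:**
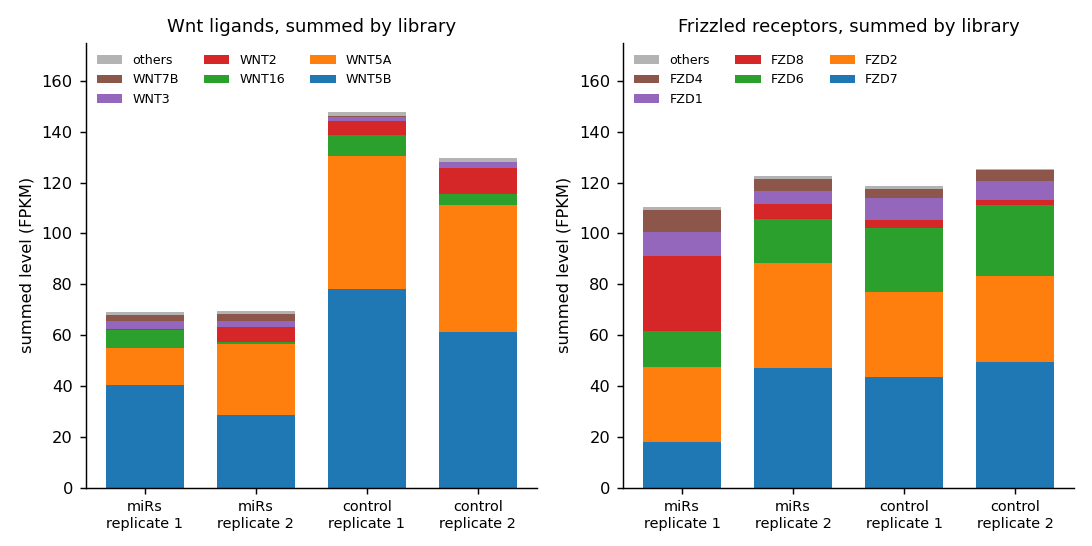
Summed FPKM per library of the Wnt ligands (left) and the Frizzled receptors (right), miRs libraries first, with the 6 most abundant genes of each in colour and all others in grey. The ligand sum was 69.1 and 69.4 FPKM in miRs, against 148 and 129 FPKM in control, while the Frizzled sum was 110.5 and 123 FPKM in miRs, against 118 and 126 FPKM in control, with FZD8 and FZD7 the most uneven between the miRs libraries.

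Frizzled receptors are the surface proteins that Wnt ligands bind. Their sum was 110.5 and 123 FPKM in miRs replicates 1 and 2, against 118 and 126 FPKM in control replicates 1 and 2, overlapping ranges with a ratio of means of 0.956. The make-up differed more than the sum. FZD2, FZD7 and FZD6 were the leading receptors in control, in the order FZD7, FZD2, FZD6 in both control libraries. In miRs replicate 2 FZD7 and FZD2 still led, whereas FZD2 and FZD8 led in miRs replicate 1.

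FZD8 stood out in size, though its miRs libraries were far apart. This receptor, whose ligand-binding domain in mouse has been crystallised with a frog Wnt, was at 29.4 and 5.68 FPKM in miRs replicates 1 and 2, against 3.14 and 1.99 FPKM in control replicates 1 and 2. Both miRs libraries were above both controls, and replicate 1 was 5.18-fold above replicate 2. FZD8 averaged 17.5 ± 16.8 FPKM in miRs and 2.57 ± 0.808 FPKM in control (SD, n = 2 each), a log2 difference of 2.02 ± 0.75 (SE; adjusted p = 0.202). With miRs replicate 1 left out the difference was 0.92, and with replicate 2 left out 3.11. The interferon list, too, was higher in miRs replicate 1 than in replicate 2; its part in the FZD8 values was not tested.

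FZD6, a Frizzled known in mice for hair and tissue polarity, was at 14.0 and 17.5 FPKM in miRs, against 25.2 and 28.003 FPKM in control. Neither group overlapped the other and both were tight. The log2 difference was −0.73 ± 0.16 (SE; adjusted p = 0.102), −0.88 without miRs replicate 2 and −0.58 without miRs replicate 1. FZD7, which signals through beta-catenin in many stem cells, was at 18.01 and 46.9 FPKM in miRs, against 43.7 and 49.3 FPKM in control. Only replicate 1 was low. Its log2 difference of −0.65 ± 0.46 (SE; adjusted p = 0.429) was −1.32 without miRs replicate 2 (adjusted p = 0.00815) and 0.015 without miRs replicate 1.

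FZD2 and FZD1 belong to the same subfamily as FZD7. FZD2 was at 29.5 and 41.5 FPKM in miRs, against 33.4 and 33.8 FPKM in control (log2 difference 0.057, adjusted p = 0.876), with the controls lying between the miRs libraries. FZD1 was at 9.59 and 5.08 FPKM in miRs, against 8.73 and 7.42 FPKM in control, again with the controls between them (log2 difference −0.17, adjusted p = 0.748). The sign of both changed when miRs replicate 2 was left out, to −0.18 for FZD2 and 0.23 for FZD1. FZD4, the receptor of Norrin as well as of Wnt ligands, was at 8.64 and 4.78 FPKM in miRs, against 3.43 and 4.44 FPKM in control (log2 difference 0.61, adjusted p = 0.286; 0.98 with an adjusted p of 0.0254 without miRs replicate 2). On GENCODE 29 exons of FZD4 overlap those of PRSS23 on the other strand, a gene at 239 and 134 FPKM in miRs, against 90.8 and 71.7 FPKM in control. The strand setting of the counting is not given in the sources used here, so fragments of the 2 genes cannot be told apart.

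LRP5 and LRP6, the co-receptors of the beta-catenin branch, are close relatives. LRP5 was at 14.1 and 20.5 FPKM in miRs, against 10.6 and 10.9 FPKM in control. Both miRs libraries exceeded the controls, replicate 2 by more. The log2 difference was 0.61 ± 0.21 (SE; adjusted p = 0.178), 0.87 without miRs replicate 1 and 0.36 without miRs replicate 2. LRP6 was at 4.09 and 5.65 FPKM in miRs, against 6.26 and 5.21 FPKM in control, with overlapping groups (log2 difference −0.21, adjusted p = 0.552).

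The remaining receptors were low or listed at 0. FZD5 was at 0.952 and 0.888 FPKM in miRs, against 0.219 and 0.122 FPKM in control. It stayed just under the minimum level although its groups did not overlap, and with no minimum FPKM its log2 difference was 0.71, with an unadjusted p of 0.00108 and an adjusted p of 0.118. ROR2, a receptor tyrosine kinase for WNT5A, lay between 0.436 and 0.649 FPKM in all libraries, and the controls lay between the miRs values. FZD9 was at 0.345 and 0.433 FPKM in miRs, against 0.729 and 0.403 FPKM in control. FZD3 and FZD10 were listed at 0 in every library.

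**Figure D3:**
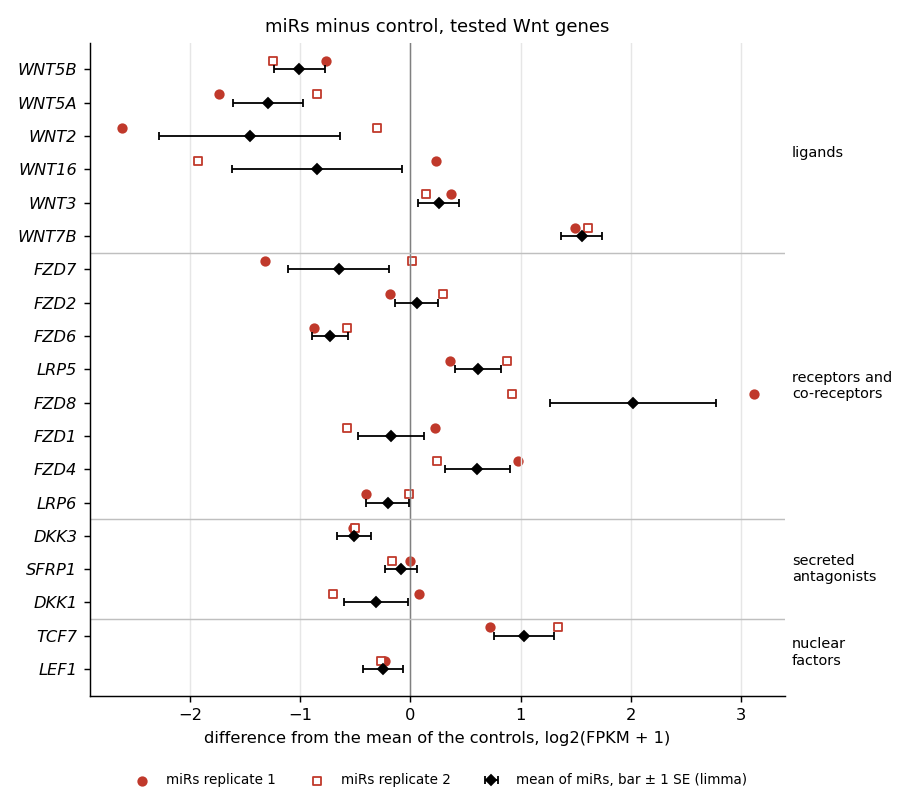
Difference from the mean of the 2 controls on the log2(FPKM + 1) scale for the 19 tested genes. Red symbols are the miRs libraries, filled for replicate 1 and open for replicate 2, and black diamonds are their mean with a bar of 1 SE from limma on each side. WNT16, FZD1, FZD2, FZD7 and DKK1 have their libraries on both sides of 0, while all the other tested genes have both on 1 side.

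The secreted antagonists DKK3 and SFRP1 were the most abundant of the Wnt genes examined, while DKK1 lay below WNT5B, FZD7 and WNT5A in mean FPKM. DKK3, a Dickkopf protein that does not block LRP6 as DKK1 does, was at 396 and 399.99 FPKM in miRs replicates 1 and 2, against 632 and 512 FPKM in control replicates 1 and 2. The miRs libraries were nearly equal and both lay below the controls. DKK3 averaged 398 ± 3.12 FPKM in miRs and 572 ± 85.2 FPKM in control (SD, n = 2 each), a log2 difference of −0.51 ± 0.15 (SE; adjusted p = 0.1502). SFRP1, which binds Wnt ligands through a Frizzled-like domain, was at 412 and 369 FPKM in miRs, against 444 and 385 FPKM in control. Its groups overlapped (log2 difference −0.086, adjusted p = 0.742), and the sign changed to 0.017 without control replicate 1 and also with quantile normalization. DKK3 ranked 158 and SFRP1 184 in mean FPKM among all 26255 genes.

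DKK1, the antagonist that takes LRP5 and LRP6 from Wnt ligands, was at 41.2 and 23.6 FPKM in miRs, against 41.3 and 36.8 FPKM in control. Only miRs replicate 2 was below the controls. The log2 difference was −0.31 ± 0.29 (SE; adjusted p = 0.540), −0.70 with miRs replicate 1 left out and 0.077 with replicate 2 left out. PRKG1-AS1, whose exons overlap those of DKK1 on the other strand on GENCODE 29, was at 0.756 and 1.15 FPKM in miRs, against 2.52 and 2.69 FPKM in control. With the strand setting of the counting not given, fragments of DKK1 and PRKG1-AS1 cannot be told apart. DKK2 lay between 0.0251 and 0.123 FPKM in all 4 libraries, SFRP2 was above 0 only in miRs replicate 2 (0.0471 FPKM), and DKK4, SFRP4 and SFRP5 were listed at 0.

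The 8 antagonists summed to 848 and 792 FPKM in miRs, against 1118 and 933 FPKM in control, a ratio of means of 0.7998. DKK3, which does not block LRP6 as DKK1 does, made up 46.6% and 50.5% of this sum in miRs, against 56.6% and 54.8% in control. Set against the ligand sum in the same library, the antagonists were at 12.3 and 11.4 times the ligands in miRs, against 7.57 and 7.21 times in control. Each miRs library was above each control in this ratio, which is a description made after the values were seen, with no test.

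TCF7, also called TCF1, was the nuclear factor with the higher mean in miRs, at 5.39 and 8.76 FPKM in miRs replicates 1 and 2, against 2.37 and 3.44 FPKM in control replicates 1 and 2. Both miRs libraries were above both controls. It averaged 7.08 ± 2.38 FPKM in miRs and 2.91 ± 0.756 FPKM in control (SD, n = 2 each), with a log2 difference of 1.03 ± 0.27 (SE; adjusted p = 0.131), and passed without miRs replicate 1 (adjusted p = 0.0350). SKP1, whose exons overlap TCF7 on the other strand on GENCODE 29, was at 138 and 127 FPKM in miRs, against 155 and 150.3 FPKM in control. With the strand setting of the counting not given, fragments of TCF7 and SKP1 cannot be told apart. LEF1, a close relative of TCF7, was at 1.51 and 1.45 FPKM in miRs, against 2.22 and 1.70 FPKM in control (log2 difference −0.25, adjusted p = 0.446). The miRs values of LEF1 were below the controls by about as much as the controls differed.

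AXIN2, the feedback inhibitor most often read as a marker of beta-catenin signalling, stayed below the minimum mean. It was at 0.311 and 1.38 FPKM in miRs, against 0.652 and 1.006 FPKM in control. The controls lay between the miRs libraries, which were 4.43-fold apart. No direction can be read from these values.

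**Figure D4:**
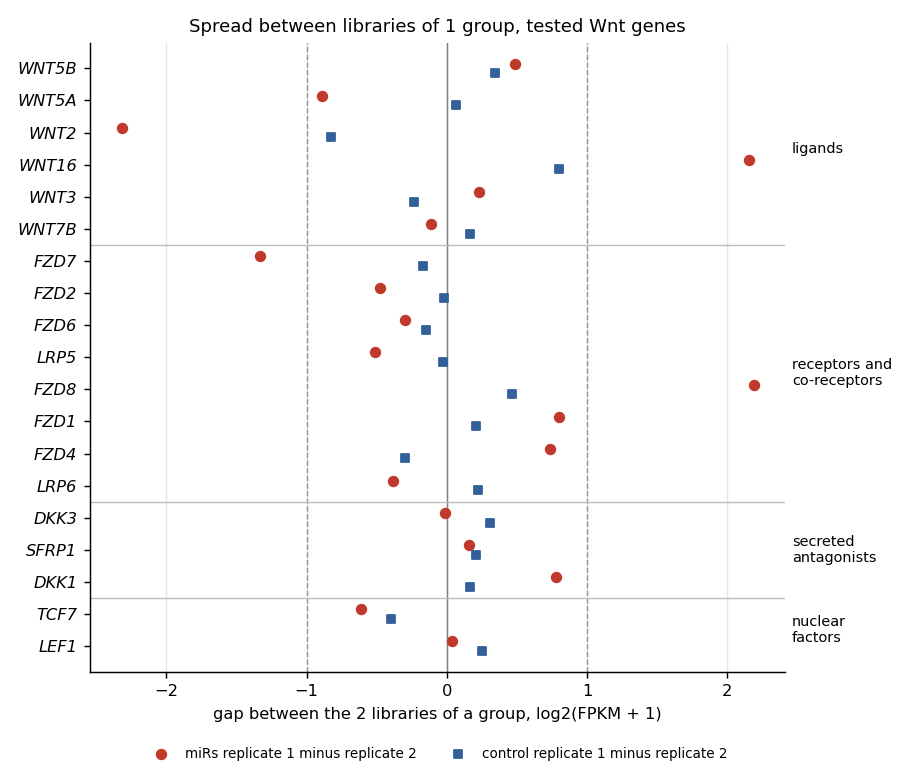
Gap between the 2 libraries of a group (replicate 1 minus replicate 2, log2(FPKM + 1)) for the 19 tested genes, red for miRs and blue for control, with dashed lines at 1 on each side of 0, a gap of 2-fold in FPKM + 1. WNT2, WNT16, FZD7 and FZD8 lie beyond the lines in miRs and none of the 19 does in control.

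Over 2-fold in FPKM + 1 between the miRs libraries lay 4 of the 19 tested genes, where 6.11% of all tested genes lay: WNT2, WNT16, FZD7 and FZD8. Between the controls the count was 0 of the 19 (0.599% of all tested genes). The gap (replicate 1 minus replicate 2 in miRs) was −2.32 for WNT2, 2.16 for WNT16, −1.33 for FZD7 and 2.19 for FZD8, so the high library was replicate 1 for WNT16 and FZD8 and replicate 2 for WNT2 and FZD7. For the controls the gaps of these 4 genes were between −0.83 and 0.80. The interferon list also differed between the miRs libraries, with a median log2 difference from the controls of 6.69 in replicate 1 and 4.25 in replicate 2, and its part in these gaps was not tested.

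The rest of the pathway was described through 5 lists of 85 genes in all, of which 82 were in the files and 55 were tested. None reached an adjusted p of 0.05 in limma (0 of the 55), the smallest adjusted p being 0.0769, for APCDD1, which reached the expression minimum only through the control libraries. At an unadjusted p under 0.05 there were 10 higher and 5 lower in miRs, 27.3% of the 55, against 24.2% of all tested genes. The groups did not overlap in 28 of the 55 (50.9%, against 59.5%). Their median log2 difference was 0.026.

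In ligand secretion and extracellular control, 5 of 21 listed genes present were tested, 0 higher and 2 lower in miRs at an unadjusted p under 0.05 (11.2% and 13% of all tested genes). KREMEN1, a receptor through which DKK1 removes LRP6 from the surface, was at 1.63 and 2.53 FPKM in miRs, against 4.9995 and 5.17 FPKM in control (log2 difference −0.997, adjusted p = 0.0930). PORCN, which attaches the lipid to Wnt ligands, was at 4.55 and 5.20 FPKM in miRs, against 6.48 and 7.24 FPKM in control (adjusted p = 0.185). WLS, which carries the ligands to the surface, was at 161 and 104 FPKM in miRs, against 123 and 91.1 FPKM in control, with overlapping groups, and LGR4, a receptor of R-spondins, at 3.67 and 3.02 FPKM in miRs, against 2.82 and 2.09 FPKM in control (adjusted p = 0.343).

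Of 12 tested genes for other Wnt receptors and planar polarity, 4 had an unadjusted p under 0.05, all 4 higher in miRs (11.2% of all tested genes were higher at that p). VANGL1, a core membrane protein of planar polarity, was at 8.78 and 7.43 FPKM in miRs, against 4.01 and 4.04 FPKM in control (log2 difference 0.85, adjusted p = 0.0850). Its relative VANGL2 was at 3.44 and 4.14 FPKM in miRs, against 1.82 and 2.63 FPKM in control (adjusted p = 0.185). PRICKLE2, a cytoplasmic polarity protein, was at 6.21 and 6.63 FPKM in miRs, against 4.14 and 4.53 FPKM in control (adjusted p = 0.142), and PRICKLE3 at 28.1 and 17.4 FPKM in miRs, against 12.3 and 13.4 FPKM in control (adjusted p = 0.177).

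The cytoplasmic machinery holds or destroys beta-catenin. Of 19 tested Dishevelled and destruction-complex genes, 1 was higher and 1 lower in miRs at an unadjusted p under 0.05 (11.2% and 13% of all tested genes). AMER1, a membrane scaffold of the destruction complex, was at 3.18 and 3.54 FPKM in miRs, against 0.967 and 1.20 FPKM in control (log2 difference 1.07, adjusted p = 0.0796). FBXW11, a subunit of the ubiquitin ligase that marks beta-catenin, was at 10.4 and 7.85 FPKM in miRs, against 20.1 and 18.4 FPKM in control (log2 difference −1.01, adjusted p = 0.0849). Its paralog BTRC was at 8.09 and 7.46 FPKM in miRs, against 6.61 and 5.15 FPKM in control (adjusted p = 0.268), and the kinase CSNK1E at 42.0 and 49.98 FPKM in miRs, against 59.4 and 58.6 FPKM in control (adjusted p = 0.221). Beta-catenin itself (CTNNB1), a choice made with its values known, had 88.6 and 105 FPKM in miRs, against 100.3 and 101 FPKM in control.

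Among 12 tested nuclear partners of beta-catenin, 4 were higher and 0 lower in miRs at an unadjusted p under 0.05 (11.2% and 13% of all tested genes). The co-repressor TLE1 was at 15.0 and 15.1 FPKM in miRs, against 10.3 and 10.3 FPKM in control (log2 difference 0.51, adjusted p = 0.109). The co-activator BCL9L was at 35.0 and 45.4 FPKM in miRs, against 23.995 and 26.8 FPKM in control (adjusted p = 0.138). TCF7L1, a TCF that mostly represses, was at 12.6 and 18.2 FPKM in miRs, against 8.65 and 10.4 FPKM in control (adjusted p = 0.185), and CTNNBIP1, which keeps beta-catenin from TCF, at 9.37 and 15.3 FPKM in miRs, against 7.501 and 6.60 FPKM in control (adjusted p = 0.197).

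Of 7 tested target and feedback genes, 1 was higher and 2 were lower in miRs at an unadjusted p under 0.05 (11.2% and 13% of all tested genes), and 0 passed an adjusted p of 0.05. APCDD1, a membrane inhibitor of Wnt signalling, was at 0.626 and 0.607 FPKM in miRs, against 4.59 and 2.89 FPKM in control (log2 difference −1.53, adjusted p = 0.0769), and its miRs mean was under the minimum of 1 FPKM. PPARD, a nuclear receptor, was at 14.6 and 19.8 FPKM in miRs, against 32.3 and 34.2 FPKM in control (adjusted p = 0.0925). MYC was at 42.3 and 27.2 FPKM in miRs, against 19.4 and 19.7 FPKM in control (adjusted p = 0.156). Cyclin D1 (CCND1) was at 269 and 126 FPKM in miRs, against 414 and 304 FPKM in control (adjusted p = 0.245). MYC and CCND1 thus had opposite directions, and the more specific feedback genes NKD1, NKD2 and SP5 were at or near 0 in all libraries.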

How the data were processed

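RNA from 2 miRs and 2 control samples was converted to libraries with a stranded kit for polyadenylated RNA, per the labels' protocols. Per the submitters' processing notes, the tools named are Cuffdiff 2.2.1, TopHat2 2.1.1, Bowtie2 2.2.8 and SAMtools 0.1.18, and the build is hg19. Each library's table, as the authors deposited it, gives FPKM by gene symbol, per the file headers. Annotation, strand setting and scaling are not stated in those sources, and depth in reads is unknown. Among genes under 0.3 FPKM in both libraries the commonest ratio to control replicate 1 was 0.899 in miRs replicate 1, 1.03 in miRs replicate 2 and 1.05 in control replicate 2, the relative worth of 1 fragment.

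The files were joined on gene symbol and not rescaled. Limma 3.58.1 (R 4.3.3) was run on log2(FPKM + 1) for genes averaging 1 FPKM or more, 2-sided, with a variance trend and Benjamini-Hochberg adjustment over all tested genes. Log2 differences (miRs minus control) are on that scale, which understates changes of low genes. Every Wnt gene at the minimum mean is given in each library, those reaching 1 FPKM in any single library are named, and each pathway list gives up to 4 tested genes with the smallest p. Other names were added after values were seen. Members and lists were chosen with earlier results of these data known. The alternatives were no minimum or 5 FPKM, a pseudocount of 0.1, median-of-ratios and quantile scaling, no trend, the replicate number as a block, and each library left out. An exact 0 can be a failed estimate in such files. Promoters were searched in Python 3.11.15.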

Additional observations from a re-analysis of the deposited data

How the results depend on the processing

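The count of called genes over all 11860 (29) was 0 with no minimum FPKM and 99 with the replicate block, and ranged from 0 to 3746 when 1 library was left out. The count of called Wnt genes was 0 under each alternative that kept all libraries, the replicate block included, and ranged from 0 to 8 with 1 library left out (0 without either control). No replicate pairing is stated, the correlation of deviations between libraries of the same number was 0.20, and 2 pairs are too few to establish one. Over the 19 tested genes and the alternatives that kept all libraries, 128 of the values kept their direction and their side of the threshold, and 1, SFRP1 with quantile normalization (0.017, log2 difference), reversed. With 1 library left out, 1 group held a single library, and 6 of the values reversed. Passes of the threshold in those fits are not read as support for a gene. The genes that reversed ranged from -1.92 to 0.23 (WNT16), -1.32 to 0.015 (FZD7), -0.18 to 0.30 (FZD2), -0.57 to 0.23 (FZD1), -0.19 to 0.017 (SFRP1) and -0.70 to 0.077 (DKK1). The cause of these moves was not tested. The median log2 difference of all tested genes stayed between -0.015 and 0.0043 under these alternatives. The 2 libraries per group leave 2 residual degrees of freedom, and unknown depth gives no counting interval for genes near 0.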

Other observations

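TPBG, a membrane glycoprotein that inhibits Wnt signalling in zebrafish embryos, is outside the rule and the pathway lists and was named after its values were seen. It was at 103 and 122 FPKM in miRs replicates 1 and 2, against 28.1 and 25.7 FPKM in control replicates 1 and 2. Both miRs libraries were far above both controls, and it rose with a log2 difference of 2.03 ± 0.15 (SE; adjusted p = 0.0405 in limma). The call is lost with no minimum FPKM (adjusted p = 0.114), with quantile normalization (0.0529), with no variance trend (0.0522), without control replicate 1 (0.453) and without control replicate 2 (0.457). Over all the alternatives run its adjusted p lay between 0.00316 and 0.457.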
